A study of Mus musculus with 2 samples.

Results

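The Gimap cluster is a group of 8 neighbouring genes on mouse chromosome 6 (Gimap1, Gimap3, Gimap4, Gimap5, Gimap6, Gimap7, Gimap8 and Gimap9). It was followed here through an interval of 200 kb on chromosome 6 of mm9, from 48.58 to 48.78 Mb, set by its coordinates. Members and rules were chosen with earlier results of these data known. The interval holds 200 bins of 1 kb, of which 196 had a read, as did 2246042 bins of the whole genome. The study compared 2 chromatin immunoprecipitation sequencing (ChIP-seq) libraries of Th2 cells, the interleukin 4-secreting helper T cells. The cells were CD4+CD62L+ splenocytes of C57BL/6 mice, kept for 5 days with anti-CD3/CD28, IL-4 (10 ng/ml) and anti-IFN-g (2 µg/ml) and then rested for 3 days; both libraries came from cells treated in this way. One library was made with anti-H3KAc, which recognises histone H3 acetylated on its lysines, and the other with polyclonal rabbit IgG, which measures the non-specific background.

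GIMAP proteins (GTPases of immunity-associated proteins) are guanine nucleotide-binding proteins of lymphocytes, and many of them sit on intracellular membranes. They are best known for their part in the survival of T and B cells. Acetylation of histone H3 marks active chromatin, above all promoters and enhancers, so its pattern across the cluster can point to where such chromatin lies. Which stretches are promoters or enhancers in these cells was not tested. Gimap5, a protein of lysosomal membranes, is needed for the survival of peripheral T cells, and its loss causes lymphopenia in rats and mice. Gimap3 is its closest mouse relative. Gimap1 is needed for mature T and B cells, Gimap4 has been tied to T cell death, and Gimap6 binds a protein of the autophagy machinery. Gimap7 can stimulate GTP hydrolysis by a partner GIMAP protein, and Gimap8 is a large member with several GTPase domains.

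In the RefSeq gene table (GRCm38.p6), which gave gene names and neighbours here, the members follow each other in the order Gimap8, Gimap9, Gimap4, Gimap6, Gimap7, Gimap1, Gimap5 and Gimap3. Gimap6 and Gimap3 are read from the minus strand and the other 6 from the plus strand. The order is interrupted by the pseudogene Gm44262 and the long noncoding RNA gene Gm46958, both between Gimap8 and Gimap9. Zfp775 is the nearest protein-coding gene on the Gimap8 side and Tmem176b on the Gimap3 side. The table is on another build than the reads, so none of its coordinates was set against them, and the H3KAc-rich regions below are given by position and number and are not assigned to genes. For the same reason the cells were not checked against Th2 marker genes.

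The regulatory sequence of the members can be read from RefSeq promoter windows of 300 bases (250 before to 50 after a gene start, GRCm38.p6). All 8 members had one, and Gimap8 had 2 that overlap, which gave 9 windows that are not all separate. Their CpG counts ranged from 2 to 8 with a median of 4, against a median of 7 over 32851 windows of the genome. Motif letters were searched on both strands. GGAAGT, a core of sites bound by ETS factors (a family that includes lymphocyte regulators), was present in 4 of the 9 windows, against 23.8% of all windows. The last 150 bases of these 4 windows are shown because they carry this match at or near the gene start. They run 5′ to 3′ on the gene's strand, the last 50 bases follow the start, and capitals mark GGAAGT or its reverse complement.
Gimap9: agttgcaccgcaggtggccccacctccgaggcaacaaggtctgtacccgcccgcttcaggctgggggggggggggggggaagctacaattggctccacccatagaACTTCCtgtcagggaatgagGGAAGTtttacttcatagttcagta
Gimap6: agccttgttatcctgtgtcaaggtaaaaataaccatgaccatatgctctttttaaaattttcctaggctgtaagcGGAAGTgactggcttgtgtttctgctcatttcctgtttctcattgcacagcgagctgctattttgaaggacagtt
Gimap1: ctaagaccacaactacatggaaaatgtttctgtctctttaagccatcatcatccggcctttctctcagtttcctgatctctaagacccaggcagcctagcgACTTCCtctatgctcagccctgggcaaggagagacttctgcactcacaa
Gimap5: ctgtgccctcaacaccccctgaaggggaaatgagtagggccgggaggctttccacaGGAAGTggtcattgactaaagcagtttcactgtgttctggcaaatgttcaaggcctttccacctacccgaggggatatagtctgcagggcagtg
Gimap9 has 2 matches, both just after the start, and Gimap5 has a further match outside the part shown. TGTGGT, the core of RUNX sites, was found in 3 of the 9 windows (Gimap1, Gimap4 and Gimap7), against 16.8% of all windows. GATAA, read by GATA factors such as the Th2 regulator GATA3, was found in 2 (Gimap4 and Gimap6), against 25.4%. The STAT6 motif, bound downstream of IL-4, was found in none of them, against 6.95%. TATAAA was found in 1 (Gimap6), against 13.6%, as its reverse complement and upstream of the last 150 bases of that window. These matches describe letters in these windows and were not compared with the reads.

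The H3KAc library held 19711169 distinct read positions from 21845451 deposited reads, and the IgG library 1897666 from 7626703. The distinct positions averaged 8.78 and 0.845 per covered bin. Levels are given as reads per 1000000 distinct positions (RPM), so that 1 read equals 0.0507 RPM in H3KAc and 0.527 RPM in IgG. With 1 library per group there is no replicate check and no test was made. Every interval below is a 95% interval for counting error alone, and PCR copies were not told apart by molecular identifiers. A lower level can mean fewer cells with the mark or less of it per cell, and these cannot be told apart.

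Over the whole interval H3KAc was at 196 RPM (exact Poisson interval 190 to 202) from 3862 reads, and IgG at 101 RPM (87.4 to 117) from 192 reads. H3KAc was thus 1.94 times the IgG level (exact conditional binomial interval 1.68 to 2.25). The surroundings did not show such a ratio. In the 200 kb before the interval it was 0.903 (0.824 to 0.993), from 237 RPM of H3KAc and 262 RPM of IgG. In the 200 kb after it was 0.910 (0.801 to 1.04), from 126 and 139 RPM. Both libraries differed between the interval and its flanks. H3KAc per kb was 1.08 times that of both flanks together (1.04 to 1.12), lying below the flank before at 0.826 times (0.792 to 0.863) and above the flank after at 1.55 times (1.48 to 1.63). IgG per kb was 0.505 times that of both flanks (0.428 to 0.592), 0.386 times that of the flank before (0.325 to 0.456) and 0.730 times that of the flank after (0.603 to 0.883). Against the flank before, the higher ratio went with lower IgG alone, and against the flank after with more H3KAc and less IgG.

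Set among 12499 windows of 200 kb laid across the genome in the same phase, the cluster had more H3KAc than 94.8% of them and more IgG than 72.4%. The median window had 62.9 RPM of H3KAc and a ratio of 1.03. A higher ratio than that of the cluster was found in 97 windows, and in 10 of 728 on chromosome 6. Among 540 windows within 10 percent of its H3KAc level, the median ratio was 0.936, and 3 windows lay higher. The plot of windows by level places the cluster beside the edge of the cloud.

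**Figure D1:**
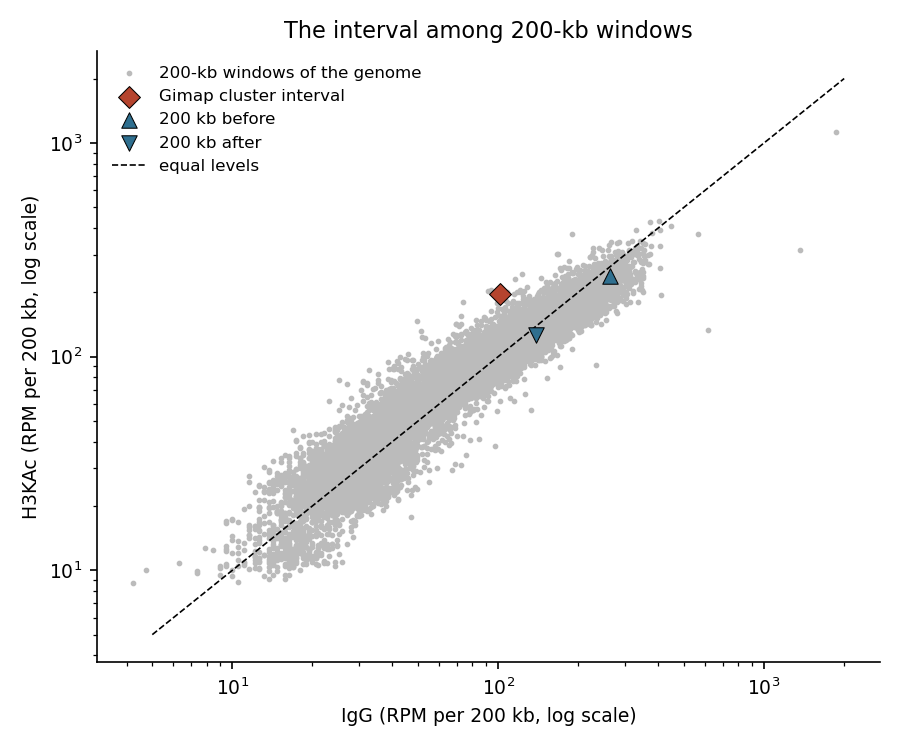
H3KAc (RPM per 200 kb, vertical log axis) against IgG (RPM per 200 kb, horizontal log axis). Grey points are windows of the genome with an IgG read, the diamond is the Gimap cluster interval (196 and 101 RPM) and the triangles are its flanks. The dashed line marks equal levels: the interval lies above it and both flanks below.

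H3KAc was not spread evenly over the cluster. A rule on its level marked 9 separate regions, termed H3KAc-rich for their reads alone and numbered 1 to 9 along the chromosome. Their number depends on that rule, and they held 41.6% of the H3KAc reads of the interval. They were formed from bins with at least 46 H3KAc reads, the 99th percentile of covered bins, joined where at most 1 bin lay between them. The rule used H3KAc reads, so the H3KAc levels of the regions describe the choice and support nothing. Of the 200 bins, 24 passed, against 1.02% of all covered bins. No window of chromosome 6 had more such bins, and 67 windows of the genome did. The 200 kb before the interval held 14 such bins and the 200 kb after it 0, so the flank before was rich in them too. The bins that passed with the fewest reads held 48 and 50 reads, and those that missed with the most held 41 and 39.

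The 9 regions covered 25 kb (12.5% of the interval) and held 41.6% of its H3KAc and 26.6% of its IgG reads. They lay within 125 kb, from 48597001 to 48722000. In the 17 kb before this span the ratio was 1.09 (0.721 to 1.74). In the 58 kb after it H3KAc was low, at 0.388 RPM per kb against 0.980 for the interval, and the ratio was 1.02 (0.739 to 1.43). Between neighbouring summits, the points of highest H3KAc density, the distance ranged from 7.15 to 24.9 kb with a median of 15.7 kb.

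**Figure D2:**
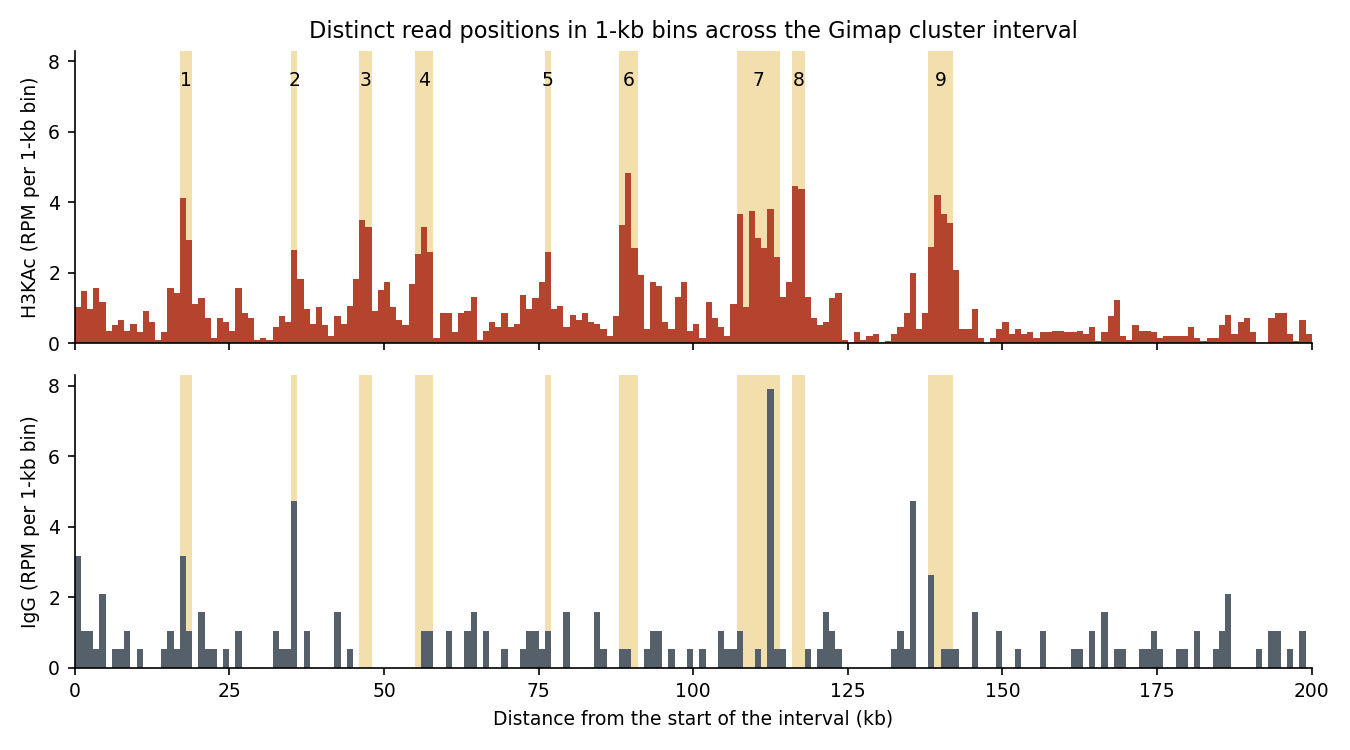
H3KAc (top) and IgG (bottom) in RPM per 1-kb bin, against the distance in kb from the start of the interval. Shading marks the 9 H3KAc-rich regions by number. H3KAc reaches 4.82 RPM in region 6 and stays low after region 9, and IgG has its highest bin, 7.90 RPM, in region 7.

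Region 1 (48597001 to 48599000) held 139 H3KAc and 8 IgG reads. At 7.05 RPM of H3KAc (5.93 to 8.33) and 4.22 RPM of IgG (1.82 to 8.31), its ratio was 1.67 (0.826 to 3.95). The interval of the ratio includes 1, so the 2 libraries were not told apart there. Region 2 (48615001 to 48616000) was a single bin with 52 H3KAc and 9 IgG reads, and its ratio was 0.556 (0.272 to 1.28). This was the one region in which IgG, at 4.74 RPM, stood above H3KAc, at 2.64 RPM, though with overlapping intervals.

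Region 3 (48626001 to 48628000) had 6.80 RPM of H3KAc (5.70 to 8.05) from 134 reads and no IgG read (0 to 1.94 RPM). The ratio has no upper bound there, and its lower bound was 3.45. Region 4 (48635001 to 48638000) had 8.42 RPM (7.19 to 9.81) from 166 reads against 4 IgG reads, a ratio of 3.995 (1.53 to 14.8). Its H3KAc reads were uneven between strands, with 103 on the plus and 63 on the minus strand. With minus-strand reads alone the ratio was 2.06 and its interval (0.673 to 10.2) included 1. Region 5 (48656001 to 48657000), again a single bin, held 51 H3KAc and 2 IgG reads and had a ratio of 2.45 (0.646 to 20.8), which was not told apart from 1 at this depth.

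Region 6 (48668001 to 48671000) contained the bin with the most H3KAc reads of the cluster, 95 reads from 48669001 to 48670000. The region had 10.9 RPM (9.45 to 12.4) from 214 reads against 2 IgG reads, a ratio of 10.3 (2.82 to 85.6). The 2 strands gave similar values, 9.83 and 10.8. Region 7 (48687001 to 48694000) was the widest, at 7 kb, and had the most H3KAc of the regions, 20.3 RPM (18.4 to 22.4) from 401 reads. One of its bins, with 20 H3KAc reads, lay below the level rule. It also had the most IgG, 19 reads, and its ratio was 2.03 (1.28 to 3.41). Of these IgG reads, 15 fell in the single bin from 48692001 to 48693000, where 75 H3KAc reads gave a ratio of 0.481 (0.274 to 0.902). Without that bin, an alternative chosen after seeing the data, the ratio of region 7 was 7.85 (3.03 to 29.0).

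Region 8 (48696001 to 48698000) had the highest H3KAc density of the regions, 4.41 RPM per kb, with 8.83 RPM (7.57 to 10.2) from 174 reads. It held no IgG read (0 to 1.94 RPM), and the lower bound of its ratio was 4.49. It lay 7.15 kb from the summit of region 7, the shortest such distance of the cluster. Region 9 (48718001 to 48722000) closed the span, with 14.0 RPM (12.4 to 15.8) from 276 reads against 7 IgG reads and a ratio of 3.80 (1.82 to 9.53). Of these 7, 5 fell in its first bin.

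**Figure D3:**
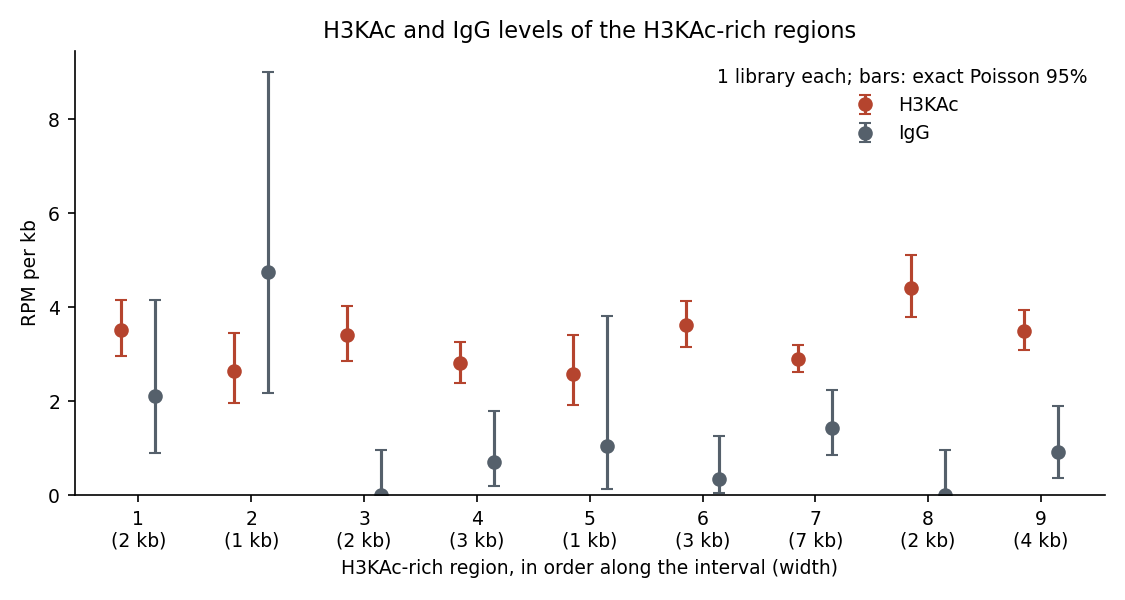
H3KAc and IgG levels (RPM per kb, vertical axis) of the 9 H3KAc-rich regions in order along the interval, with their widths. Points are the values of 1 library each and bars exact Poisson 95% intervals. Regions 3 and 8 have no IgG read, and in region 2 IgG stands above H3KAc.

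For 6 of the 9 regions (3, 4, 6, 7, 8 and 9) the lower bound of the ratio was above 1, and for 3 of them (3, 6 and 8) above 2. The H3KAc reads that chose the regions enter these ratios, so the counts are a description and support nothing. Taken strand by strand, 5 regions (3, 6, 7, 8 and 9) had a lower bound above 1 on both strands. All regions pooled gave 3.03 (2.30 to 4.09), and the 175 kb outside them 1.54 (1.30 to 1.84). H3KAc outside the regions averaged 0.654 RPM per kb and IgG 0.425, against 3.26 and 1.08 inside. IgG was thus higher inside the regions too. The strands were also split. With bins chosen on plus-strand H3KAc reads and measured on minus-strand reads, the ratio was 3.59 (2.26 to 6.10). The other way round it was 3.14 (2.06 to 5.04). Both strands come from the same libraries, so this split is no independent measure and supports nothing. Each choice found 8 regions, all of whose bins lay in the 9 regions, but the rule for the 9 counts reads of both strands.

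The high bins of the cluster were set beside those of the genome, chosen by the same rule. The 24 bins of the cluster had 3.35 RPM per kb of H3KAc and 1.12 of IgG, a ratio of 3.00 (2.27 to 4.04). The 22869 bins of the genome had 4.11 and 2.13, a ratio of 1.93 (1.92 to 1.94). The intervals do not overlap, but they cover counting error alone and not the spread between loci. The difference moved with a lower IgG level in the cluster, since its H3KAc level was also lower. Bins below the level rule had a ratio of 1.55 (1.31 to 1.85) in the cluster and 0.952 (0.951 to 0.954) over the genome.

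Bin by bin, the small number of distinct IgG positions limited what could be called. Bins holding 5 or more reads, summed over H3KAc and IgG, were tested, and enriched means a lower bound above 2. Of 169 tested bins of the cluster 3 were enriched, against 0.0836% of all bins tested. The first 2 were the bins of region 8, from 48696001 and 48697001, with 88 and 86 H3KAc reads and lower bounds of 2.25 and 2.20. The other was the second bin of region 9, from 48719001, with 83 reads and a lower bound of 2.12. None of the 3 held an IgG read. With a lower bound above 1, 13 bins were called, against 0.651% of all bins tested, and all 13 lay in the 9 regions. A bin without an IgG read needs at least 41 H3KAc reads for this call and 46 to enter a region, so the overlap restates the rules. With IgG taken over the 11 bins around each bin, 30 were called, of which 20 lay in the regions, against 2.15% of all bins tested.

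Low ratios were few. No bin of the cluster had an upper bound below 0.5, against 0.629% of all bins tested. In 3 bins the upper bound was below 1, against 3.8% of all bins tested. They were the bin of region 7 given above, the bin from 48715001 to 48716000 (39 H3KAc and 9 IgG reads, ratio 0.417, 0.199 to 0.979) and the first bin of the interval (20 and 6 reads, ratio 0.321, 0.124 to 0.977). The 5 bins with the most IgG reads, which include these 3 and a bin each of regions 1 and 2, held 23.4% of the IgG reads of the interval. In the bin of region 7, 51 deposited IgG reads stood on 15 positions, 7 on the plus and 8 on the minus strand. Reads per position averaged 4.19 for IgG over the interval and 4.02 over the genome, and 1.11 for H3KAc in both.

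In blocks of 20 kb the ratio was highest in the third block (48620001 to 48640000), which holds regions 3 and 4, at 6.92 (3.49 to 16.1). The fifth block, with region 6, had 3.77 (2.19 to 7.13), the sixth, with regions 7 and 8, had 2.82 (1.91 to 4.34), and the eighth, with the last 2 bins of region 9, had 2.57 (1.42 to 5.21). The seventh, with its first 2 bins, had 1.26 (0.838 to 1.98). The last 2 blocks, from 48740001 on, had 0.806 (0.479 to 1.45) and 0.872 (0.527 to 1.54). The sixth block had the most H3KAc, 1.93 RPM per kb, and the third the lowest IgG, 0.211 RPM per kb, so the order by ratio is not the order by acetylation.

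**Figure D4:**
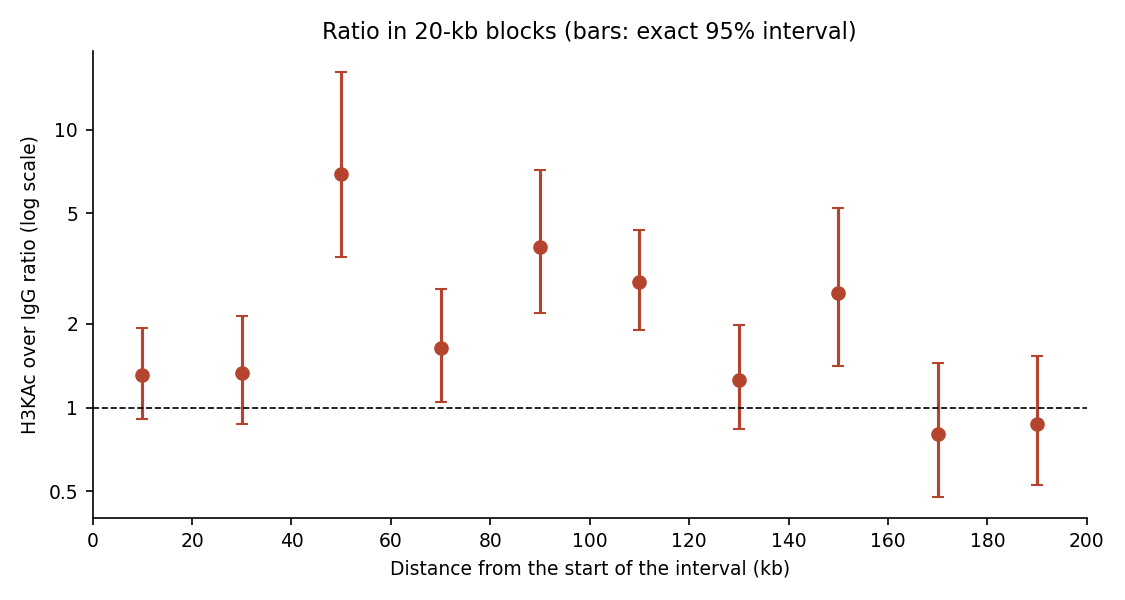
H3KAc over IgG ratio (vertical log axis) in 20-kb blocks against the distance in kb from the start of the interval, with exact 95% intervals and a dashed line at 1. Blocks 3, 5, 6 and 8 stand highest, and the last 2 blocks lie around 1.

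Each region was given a summit, the highest sum over 150 bp. The sum itself limits how narrow a width can be, and widths were not measured outside the regions. The summits held 17 to 37 reads, and the width at 0.5 of their height ranged from 200 to 650 bp. The highest stood in region 8 at position 48696425 (1.88 RPM per 150 bp) and in region 7 at 48689275 (1.73), in an order that turned when reads were moved by less, as given next. Reads had been moved by 100 bp along their strand, 0.5 of the fragment length of about 200 bp in the protocol. In the interval itself plus-strand starts lay most often 64 bp before minus-strand starts (2146 pairs within 25 bp, 2.62 times the rate beyond 800 bp). A move of 100 bp therefore carried the strands past each other. With a move of 32 bp, chosen after seeing the data, 7 of 9 summits stayed within 100 bp. Summits were then highest in region 7 (2.08 RPM per 150 bp) and next in region 8 (1.93), and widths ranged from 150 to 400 bp. The width fell from 650 to 200 bp in region 1, from 450 to 150 bp in region 4 and from 550 to 200 bp in region 5. The summit of region 1 lay 300 bp away. That of region 9 lay 2200 bp away, at 48719075, so its distance to the summit of region 8 depends on the move.

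**Figure D5:**
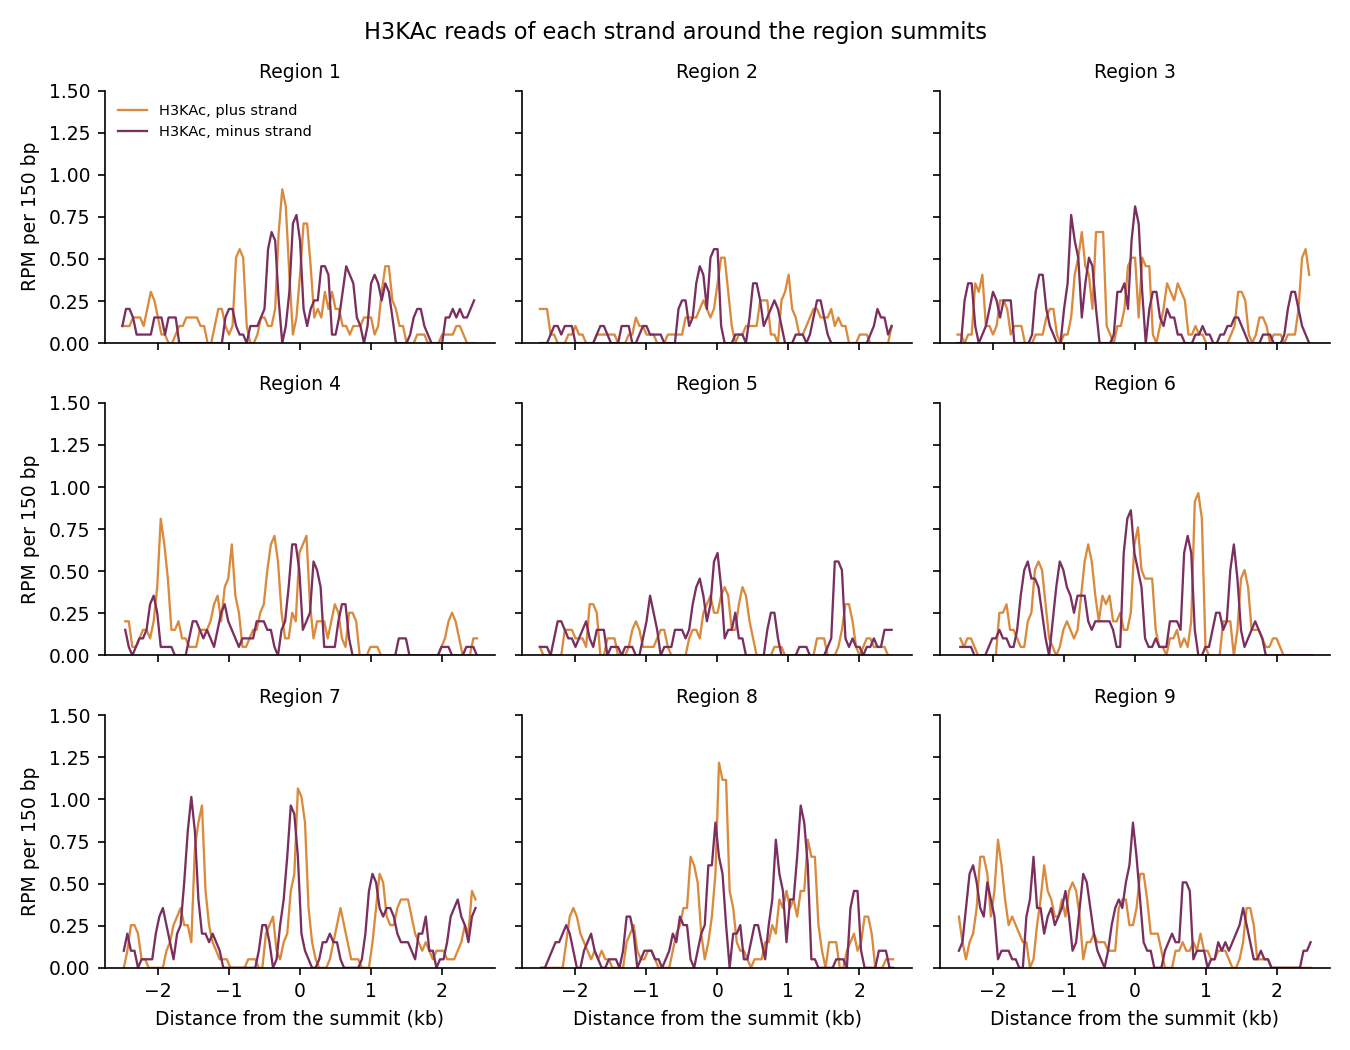
H3KAc reads of the plus and minus strands (RPM per 150 bp, vertical axis) against the distance in kb from the summit of each region, with reads moved by 100 bp along their strand. Several regions hold more than one summit, and plus-strand peaks lie to the right of their minus-strand partners.

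The emptiest stretch was short. H3KAc was without a read in 5 bins of the interval, of which the longest run was 2 kb, from 48771001 to 48773000. A count of 0 allows up to 0.152 RPM if 3 reads are taken as its upper limit. That limit is a little lower than the exact Poisson limit given for the regions. No IgG read was found in 105 of the 200 bins. Among covered bins, H3KAc was without a read in 0.510% in the interval and 0.922% in the genome, and IgG in 51.5% and 60.5%. Reads of 35 bases can match more than one copy of a gene family, and their treatment is not given in the sources used here. Its effect on these counts was not tested.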

How the data were processed

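ChIP-seq reads of 1 H3KAc and 1 IgG library were used. The authors aligned them to mm9 using Bowtie, per the submitters' processing notes. Its version, any filter and the handling of multiple alignments were not given in the sources used here. Per the file headers and read me text, the deposited files give the position and strand of each 35-base read, without normalization. Protocol per the labels: 0.4% formaldehyde, 7 µg of antibody, fragments of about 200 bp.

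Each distinct combination of chromosome, 5′ end and strand was counted 1 time, moved 100 bp along their strand and assigned to 1-kb bins, and scaled to 1000000 distinct positions. Ratios have exact Clopper-Pearson intervals and levels exact Poisson intervals (95%). All bins of the genome were treated alike. Named were the 8 members, every H3KAc-rich region, the enriched bins, the 5 bins with the most IgG reads and the longest run without H3KAc. Members, rules and lists were chosen with earlier results of these data known. Alternatives covered repeats, read shift, strand, H3KAc thinned to the IgG number, IgG scaling, bounds, bin width, percentiles and flanks. The tools were scipy 1.17.1 and numpy 2.4.6 under Python 3.11.15, with matplotlib 3.10.9 for plots and pandas 2.3.3 for reading.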

Additional observations from a re-analysis of the deposited data

How the results depend on the processing

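The ratio of the whole interval stayed within its interval with all deposited reads, reads not moved, 1 strand, thinned H3KAc and IgG scaled by background bins. So did the pooled ratio of the regions, also with bins not joined or chosen on the other strand. Alternatives added after seeing the data moved the first from 1.94 to 2.35 without the 5 bins with the most IgG reads, 2.40 over the span of the regions alone and 1.54 without the regions, and the second from 3.03 to 4.10 without the bin with the most IgG reads. The H3KAc level of the interval over its flanks, 1.08, became 1.17 with thinned H3KAc and 1.15 with flanks of 100 kb, where the IgG value became 0.621 in place of 0.505. The 3 enriched bins became 0 with a lower bound above 4, 13 above 1 and 30 with IgG over 11 bins. The count was 0 with plus-strand reads, minus-strand reads, thinned H3KAc and 500-bp bins, each of which leaves fewer reads per bin. It was 27 with all deposited reads, which counts reads at the same position separately (over the genome 4.02 per position for IgG and 1.11 for H3KAc). Bounds from that count are too narrow if such reads are copies. The 24 high bins became 10 at the stricter of the percentiles tried and 13 with thinned H3KAc, where counts per bin are small. Of 55 values for single regions under the alternatives, 54 stayed within their intervals or, without IgG reads, kept a lower bound above 1, and region 7 without its highest IgG bin is the other. Those intervals are wide at this IgG depth, so most alternatives could hardly leave them. Only region 4, of the 6 with a lower bound above 1, lost that bound, with minus-strand reads. No paired analysis was possible because each group has 1 library. The number of distinct IgG positions, 192 over 200 kb from 804 deposited reads, limits every ratio.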
